A study of Mus musculus with 12 samples.

Results

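The genes described here are 10 canonical targets of Notch signalling, chosen by name: Hes1, Hes5, Hes6, Hey1, Hey2, Heyl, Dtx1, Nrarp, Notch3 and Trib2. All 10 were found among the 39017 genes counted in each of 12 RNA sequencing libraries of sorted mouse LSK cells, and all 10 were among the 16024 genes tested. LSK cells (Lin- Sca1+ cKit+) are the bone marrow fraction that holds blood stem cells and multipotent progenitors. The 12 libraries fall into 4 labelled groups of 3. NICD_TCFKO libraries are labelled R26 N1IC lox/+ Tcf7 lox/lox Mx1Cre, NICD_TCFWT libraries R26 N1IC lox/+ Mx1Cre, NOTCHWT_TCFKO libraries Tcf7 lox/lox Mx1Cre, and NOTCHWT_TCFWT libraries wild type. N1IC is the intracellular, constantly active part of the Notch1 receptor, here placed at the R26 locus behind a lox-controlled block. Tcf7 encodes TCF-1, a transcription factor of early T cells. All mice, wild type included, were C57BL/6J; Sv/129 and were given poly(I:C) at 2 ug per g body weight, which switches on Cre from the interferon-responsive Mx1 promoter. That promoter acts in many blood and other cells, so Cre was not restricted to LSK cells by it. Cells of both NICD groups were also gated as CD45.2+ eGFP+, and this gate cannot be told apart from the N1IC label. Age and sex of the mice are not given in the labels, nor whether replicates came from separate mice. The p-values therefore speak only of the variation among these libraries.

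Notch is a surface receptor that is cut when a ligand on a neighbouring cell binds it, and its freed intracellular domain then joins the DNA-binding protein RBPJ in the nucleus. The complex switches on genes of the HES and HEY families, which encode basic helix-loop-helix repressors, along with regulators that feed back on the pathway such as Dtx1 and Nrarp. In blood, Notch1 signalling directs progenitors to the T cell fate at the expense of other fates, and its constant activity is a known driver of T cell leukaemia.

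RBPJ recognises the core TGGGAA, most often within GTGGGAA, and promoter windows of the targets were searched for these letters on both strands. RefSeq windows (GRCm38.p6, 250 bases before to 50 after the annotated start) were at hand for 7 of the 10 genes, namely Hes5, Hes6, Hey2, Dtx1, Nrarp, Notch3 and Trib2. Hes6 had 2 windows. The windows of Hes5 and Hey2 are shown because each holds GTGGGAA at 2 places, that of Nrarp because it holds the E-box CACGTG, and that of Dtx1 because Dtx1 spanned the widest range of levels. Capitals mark GTGGGAA or its reverse complement TTCCCAC, and CACGTG.
Hes5, chr4:154960673-154960972, plus strand: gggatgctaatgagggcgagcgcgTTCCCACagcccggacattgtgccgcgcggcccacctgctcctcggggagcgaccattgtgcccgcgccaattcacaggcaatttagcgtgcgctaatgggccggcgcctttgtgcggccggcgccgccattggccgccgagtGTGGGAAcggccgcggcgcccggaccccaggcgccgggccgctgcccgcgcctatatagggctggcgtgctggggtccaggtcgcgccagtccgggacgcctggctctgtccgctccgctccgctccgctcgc
Hey2, chr10:30842734-30843033, minus strand: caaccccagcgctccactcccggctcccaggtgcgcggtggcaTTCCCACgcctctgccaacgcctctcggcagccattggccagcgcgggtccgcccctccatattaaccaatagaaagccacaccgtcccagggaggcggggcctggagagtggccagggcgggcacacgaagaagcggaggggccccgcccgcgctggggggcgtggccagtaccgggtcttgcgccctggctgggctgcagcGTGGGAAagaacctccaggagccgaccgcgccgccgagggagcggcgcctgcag
Nrarp, chr2:25180508-25180807, plus strand: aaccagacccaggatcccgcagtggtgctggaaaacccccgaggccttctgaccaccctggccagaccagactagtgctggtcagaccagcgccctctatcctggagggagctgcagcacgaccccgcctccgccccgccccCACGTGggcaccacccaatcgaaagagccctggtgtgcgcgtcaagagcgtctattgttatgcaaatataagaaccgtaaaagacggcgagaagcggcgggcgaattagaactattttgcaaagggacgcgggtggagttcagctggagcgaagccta
Dtx1, chr5:120711620-120711919, minus strand: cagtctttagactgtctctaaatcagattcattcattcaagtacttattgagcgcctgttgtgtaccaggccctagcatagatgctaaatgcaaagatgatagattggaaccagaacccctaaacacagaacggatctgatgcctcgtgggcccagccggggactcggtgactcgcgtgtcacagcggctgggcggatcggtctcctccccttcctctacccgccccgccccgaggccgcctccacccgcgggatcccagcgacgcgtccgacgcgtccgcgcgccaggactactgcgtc

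In Hes5 the matches to GTGGGAA began 226 and 83 bases before the start, on the minus and the plus strand of the gene. Those in Hey2 began 207 and 4 bases before the start, again on opposite strands. Of 32851 windows of the same length over all genes, 6.38% held GTGGGAA at least once and 0.256% at least at 2 places. The core TGGGAA, which every GTGGGAA contains, was found in no further target window and stood in 25.6% of all windows. The E-box CACGTG, a sequence bound by HES and HEY proteins, stood in 7.15% of all windows and, among the targets, in that of Nrarp, 108 bases before the start. The core CTTTGA, bound by TCF-1 and LEF-1, stood in 16% of all windows and in none of the target windows. Matches describe these letters in these windows and do not show binding.

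The genes that the labels name were checked first, since every direction below rests on the labels. Tcf7 was at 297, 896 and 615 CPM (counts scaled to library size) in NICD_TCFKO-labelled libraries, against 5.05, 4.68 and 6.76 CPM in NICD_TCFWT-labelled ones. It was at 0.819, 2.76 and 0.267 CPM in NOTCHWT_TCFKO-labelled libraries, against 14.3, 10.5 and 19.6 CPM in NOTCHWT_TCFWT-labelled ones. Tcf7 thus went against its label between both NICD groups and with it between both NOTCHWT groups. Notch1 was at 195, 188 and 157 CPM in NICD_TCFWT-labelled libraries, against 541, 622 and 549 CPM in NOTCHWT_TCFWT-labelled ones, which goes against the N1IC label. It was at 591, 887 and 846 CPM in NICD_TCFKO-labelled libraries, against 145, 104 and 197 CPM in NOTCHWT_TCFKO-labelled ones, which goes with it. Transcripts of N1IC could be counted for Notch1, and those of exons outside the lox sites for Tcf7. In the sample titles every library carries a second name. It begins with RAD in NOTCHWT_TCFWT libraries, RNIC-CTRL in NICD_TCFWT ones, RNIC-Tg in NICD_TCFKO ones and Tcf7-Tg in NOTCHWT_TCFKO ones. The meaning of these names is not given in the sources used here. Whether labels were exchanged between groups was not tested. Groups are therefore called by their labels, and every direction below, the interaction included, is that of the labels and not of a checked genotype.

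Library totals ranged from 30453271 to 43790674 counts, so that 3 counts in the shallowest library are 0.0992 CPM. Of the genes behind the LSK gate, Kit was at 609.7 to 978 CPM and Ly6a, which encodes Sca1, at 33.1 to 148 CPM over all libraries. A further 5 stem and progenitor genes were detected in every group, at levels that differed. Flt3 was at 99.4 to 131 CPM in NICD_TCFKO-labelled libraries and 42.3 to 73.9 in NOTCHWT_TCFWT-labelled ones. It was at 515 to 570 CPM in NICD_TCFWT-labelled libraries and 280 to 656 in NOTCHWT_TCFKO-labelled ones. Mecom was likewise higher in the latter groups without overlap, whereas Cd34, Slamf1 and Procr overlapped. Xist was high in all libraries labelled NOTCHWT_TCFWT, whereas Y-linked transcripts marked NICD_TCFKO 1, NICD_TCFWT 1 and 2 and NOTCHWT_TCFKO 3. NOTCHWT_TCFKO 1 held both, with Xist at 2156 CPM and Y-linked genes at 154 CPM, so results for its group are also given without it. Libraries of 3 groups thus came from mice of both sexes and are not all repeats of 1 mouse, which is not shown for NOTCHWT_TCFWT-labelled ones, whose spread may be technical. CPM values below are per library or as mean ± SD of 3, and differences are log2 fold changes ± SE from edgeR's quasi-likelihood test, called at an adjusted p (Benjamini-Hochberg, over the 16024 genes tested) below 0.05.

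The targets divided the 12 libraries into 2 sets. Summed over the 10 genes, their level was 488 to 552 CPM in NICD_TCFKO-labelled libraries and 562 to 639 CPM in NOTCHWT_TCFWT-labelled ones. It was 66.6 to 68.8 CPM in NICD_TCFWT-labelled ones and 70.2 to 74.5 CPM in NOTCHWT_TCFKO-labelled ones. In these last 6 libraries Hes6 was the most abundant target, and in 11 of the 12 libraries the most abundant was either Hes1 or Hes6.

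**Figure D1:**
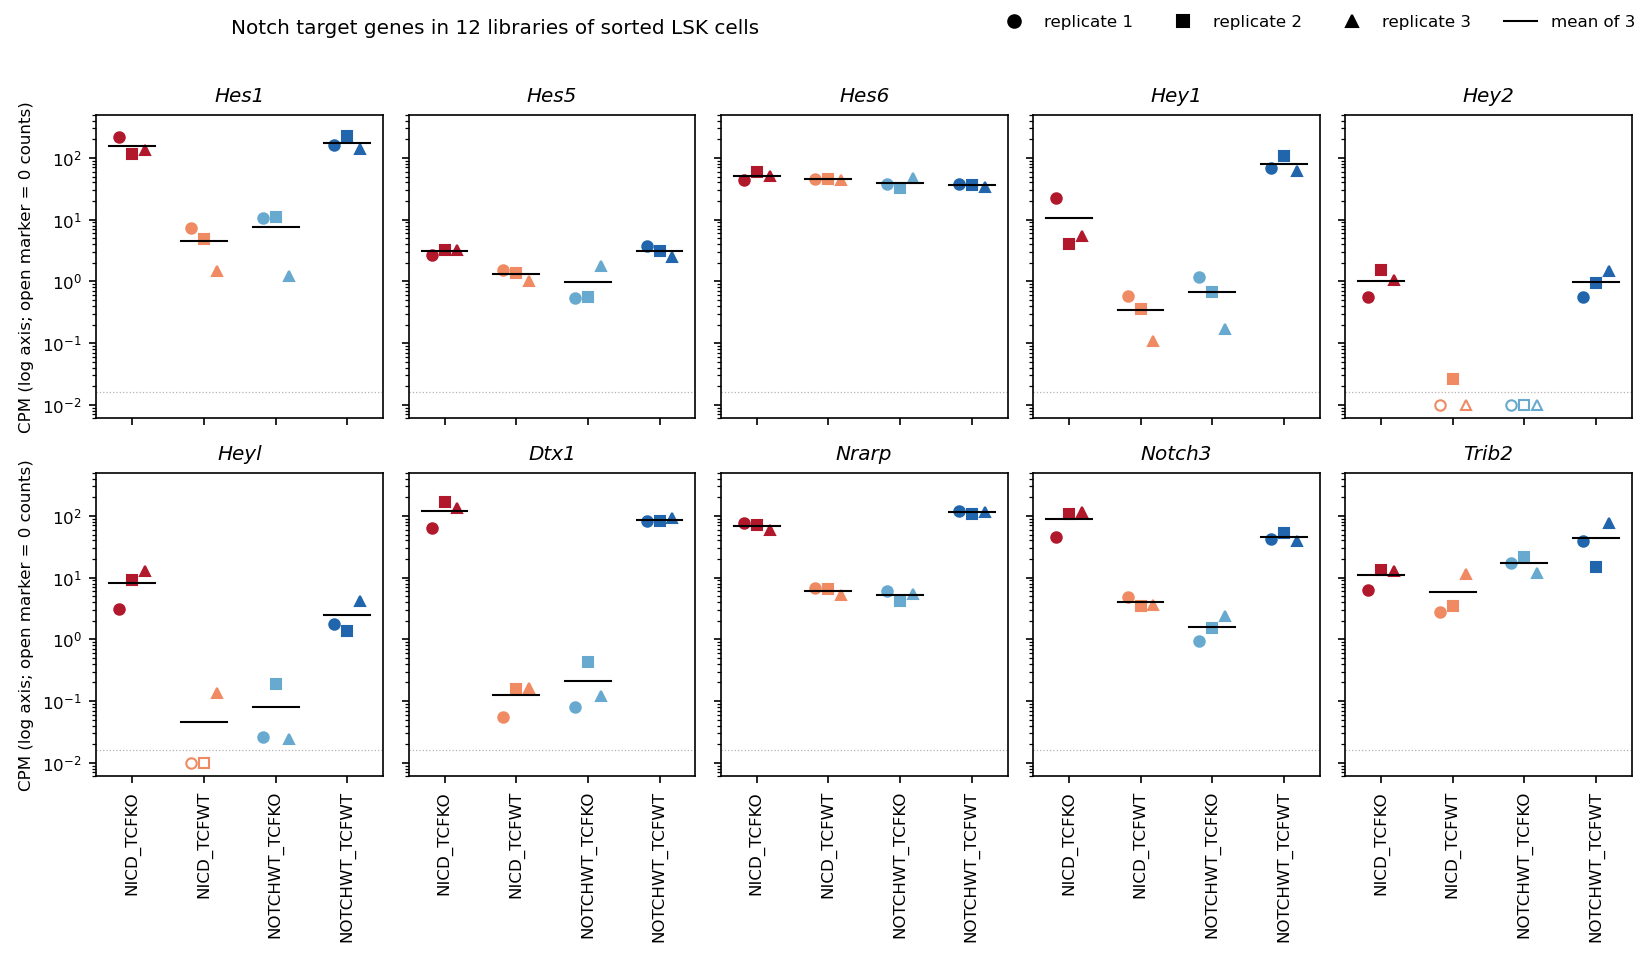
CPM of each of the 10 Notch target genes (log axis) in the 3 libraries of each labelled group, with the symbol giving the replicate, the line the mean of 3 (not drawn where it is at the bottom of the axis) and an open symbol 0 counts. Hes1, Dtx1, Nrarp and Notch3 lie high in all libraries labelled NICD_TCFKO and NOTCHWT_TCFWT and low in the others, whereas Hes6 stays between 32.3 and 58.9 CPM in all 12.

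Hes1 (chromosome 16, 30064384 to 30067796, mm10) encodes the HES repressor best known from Notch signalling and is needed for early T cell development. It was at 222, 118 and 134 CPM in NICD_TCFKO-labelled libraries, 7.33, 4.83 and 1.46 CPM in NICD_TCFWT-labelled ones, 10.7, 11.1 and 1.21 CPM in NOTCHWT_TCFKO-labelled ones and 163, 230.4 and 138 CPM in NOTCHWT_TCFWT-labelled ones. The lowest library of the high pair of groups was more than 10 times the highest of the low pair. Within each low group replicate 3 stood lowest. Per kilobase of exon, the mean level of Hes1 was 77.5 CPM in NICD_TCFKO-labelled libraries, 2.23 in NICD_TCFWT-labelled ones, 3.77 in NOTCHWT_TCFKO-labelled ones and 86.9 in NOTCHWT_TCFWT-labelled ones, the highest of the 10 targets in the first and the last of these groups.

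Hes5 (chromosome 4, 154960923 to 154962371) encodes a further repressor of the family, best known from neural stem cells. It was at 2.70, 3.27 and 3.21 CPM in NICD_TCFKO-labelled libraries, 1.55, 1.36 and 1.03 CPM in NICD_TCFWT-labelled ones, 0.528, 0.558 and 1.79 CPM in NOTCHWT_TCFKO-labelled ones and 3.81, 3.14 and 2.47 CPM in NOTCHWT_TCFWT-labelled ones. The libraries of the high and the low pair of groups did not overlap, with a narrower span than for Hes1. Strand use in the counting is not stated, and Hes5 shares 433 exon bases with the antisense gene Gm20421, which had 118 counts over all libraries.

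Hes6 (chromosome 1, 91411483 to 91414038) encodes an atypical HES protein that antagonises HES1 in neural cells, where it is not induced by Notch. It was at 44.2, 58.9 and 50.4 CPM in NICD_TCFKO-labelled libraries, 44.9, 46.4 and 44.3 CPM in NICD_TCFWT-labelled ones, 38.0, 32.3 and 47.1 CPM in NOTCHWT_TCFKO-labelled ones and 38.3, 35.9 and 34.3 CPM in NOTCHWT_TCFWT-labelled ones. No difference of Hes6 was called between any pair of groups, although NICD_TCFKO-labelled libraries lay above NOTCHWT_TCFWT-labelled ones without overlap (0.50 ± 0.13, edgeR adjusted p = 0.0525). The difference passed in DESeq2 (0.50, adjusted p = 0.00748), with RLE size factors (0.50, edgeR adjusted p = 0.0480) and without NICD_TCFKO 1 (0.60, edgeR adjusted p = 0.0238). The share of Hes6 in the summed HES and HEY level was low where Hes1 was high. It was 15.0 to 30.3% in NICD_TCFKO-labelled libraries, 82.6 to 94.2% in NICD_TCFWT-labelled ones, 72.1 to 93.6% in NOTCHWT_TCFKO-labelled ones and 9.44 to 14.2% in NOTCHWT_TCFWT-labelled ones.

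Hey1 (chromosome 3, 8663359 to 8667256) encodes a repressor known best from blood vessels and heart. It was at 22.3, 4.07 and 5.35 CPM in NICD_TCFKO-labelled libraries, 0.570, 0.360 and 0.108 CPM in NICD_TCFWT-labelled ones, 1.16, 0.664 and 0.170 CPM in NOTCHWT_TCFKO-labelled ones and 69.8, 109 and 61.4 CPM in NOTCHWT_TCFWT-labelled ones. Unlike for Hes1, NICD_TCFKO-labelled libraries all lay below NOTCHWT_TCFWT-labelled ones. NICD_TCFKO 1 stood above the other two of its group.

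Hey2 (chromosome 10, 30832359 to 30842801) was the least abundant target. It was at 0.55, 1.5 and 1.05 CPM in NICD_TCFKO-labelled libraries and 0.548, 0.926 and 1.45 CPM in NOTCHWT_TCFWT-labelled ones. It had 1 count in all in NICD_TCFWT-labelled libraries and 0 counts in NOTCHWT_TCFKO-labelled ones, where it is known only to lie at or below a floor of 0.0992 CPM. Heyl (chromosome 4, 123233556 to 123249875), the remaining HEY gene, was at 3.10, 9.18 and 12.6 CPM in NICD_TCFKO-labelled libraries and at 1.76, 1.39 and 4.18 CPM in NOTCHWT_TCFWT-labelled ones. It had 5 counts in all in NICD_TCFWT-labelled libraries, all of them in replicate 3, and 9 in NOTCHWT_TCFKO-labelled ones. Hey2 and Heyl reached 10 counts in no library of these low groups and so passed the filter on low counts through the groups where they were high. Dtx1 did so but for 1 library of NOTCHWT_TCFKO.

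Dtx1 (chromosome 5, 120680202 to 120711927) encodes Deltex1, a ubiquitin ligase that binds Notch and limits its signalling in lymphoid progenitors. It was at 64.7, 165 and 132 CPM in NICD_TCFKO-labelled libraries, 0.0543, 0.154 and 0.162 CPM in NICD_TCFWT-labelled ones, 0.0793, 0.425 and 0.121 CPM in NOTCHWT_TCFKO-labelled ones and 81.5, 82.8 and 91.9 CPM in NOTCHWT_TCFWT-labelled ones. In the low pair of groups it amounted to 14 and 24 counts over 3 libraries each, and among the 10 targets it had the widest fitted differences in the 4 comparisons across the split.

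Nrarp (chromosome 2, 25180758 to 25183339) encodes a small ankyrin-repeat protein that binds the nuclear Notch complex and promotes loss of the Notch intracellular domain. It was at 75.7, 70.7 and 59.9 CPM in NICD_TCFKO-labelled libraries, 6.79, 6.51 and 5.17 CPM in NICD_TCFWT-labelled ones, 6.02, 4.20 and 5.50 CPM in NOTCHWT_TCFKO-labelled ones and 121, 108 and 114 CPM in NOTCHWT_TCFWT-labelled ones. Its replicates lay close together in every group, and its SE of 0.14 to 0.16 in the pairwise comparisons was the smallest of the 9 targets other than Hes6. Nrarp shares 2051 exon bases with the antisense gene Gm38287, not analysed here, so reads of both cannot be told apart without strand.

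Notch3 (chromosome 17, 32120820 to 32166852) encodes a Notch receptor that is itself switched on by Notch signalling in T cell progenitors. It was at 45.8, 108 and 116 CPM in NICD_TCFKO-labelled libraries, 4.80, 3.50 and 3.60 CPM in NICD_TCFWT-labelled ones, 0.925, 1.51 and 2.38 CPM in NOTCHWT_TCFKO-labelled ones and 42.9, 53.1 and 39.3 CPM in NOTCHWT_TCFWT-labelled ones. Within the low pair, NICD_TCFWT-labelled libraries all lay above NOTCHWT_TCFKO-labelled ones, a difference that was not called (1.30 ± 0.40, edgeR adjusted p = 0.106). The antisense gene Gm17276, which shares 488 exon bases with Notch3, had 39 counts over all libraries.

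Trib2 (chromosome 12, 15791727 to 15816922) encodes a pseudokinase that directs the myeloid factor C/EBPα to degradation and has been described as a Notch target in leukaemia. It was at 6.35, 13.3 and 13.0 CPM in NICD_TCFKO-labelled libraries, 2.82, 3.47 and 11.5 CPM in NICD_TCFWT-labelled ones, 17.0, 22.0 and 11.9 CPM in NOTCHWT_TCFKO-labelled ones and 40.0, 14.6 and 77.8 CPM in NOTCHWT_TCFWT-labelled ones. Trib2 did not divide the libraries as Hes1 did, since NOTCHWT_TCFKO-labelled ones overlapped NOTCHWT_TCFWT-labelled ones. Its spread within NOTCHWT_TCFWT was the widest of any target in that group relative to the mean (44.1 ± 31.8 CPM, SD, n = 3).

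NICD_TCFWT-labelled libraries and NOTCHWT_TCFWT-labelled ones differ in the N1IC label, the Mx1Cre label and the CD45.2+ eGFP+ gate, which cannot be told apart. NICD_TCFWT 1 and 2 were also marked by Y-linked transcripts, and no NOTCHWT_TCFWT-labelled library was. Between these groups 8 of the 10 targets were lower and none higher. Over all genes tested 9.75% were called lower and 10.6% higher. The median log2 fold change was -4.75 over the targets and 0.00 over all genes. The log2 fold change was -9.39 ± 0.57 for Dtx1 (edgeR adjusted p = 8.91e-06), -4.21 ± 0.16 for Nrarp (edgeR adjusted p = 1.72e-07) and -5.28 ± 0.83 for Hes1 (edgeR adjusted p = 0.00278). It was -7.84 ± 1.00 for Hey1, -3.51 ± 0.40 for Notch3 and -2.89 ± 0.71 for Trib2. Heyl was called lower with a fitted value of -5.68 ± 1.13 that rests on 5 counts and the prior count, and it ranged from -9.56 to -5.05 over the alternatives. Hey2 was also called lower, and its level in NOTCHWT_TCFWT-labelled libraries was 114 times that in NICD_TCFWT-labelled libraries, with a 95% counting interval of 20.0 to 4543 that reflects this 1 count. Hes5 (-1.26 ± 0.44, edgeR adjusted p = 0.0653) and Hes6 (0.32 ± 0.13, edgeR adjusted p = 0.119) were not called. Hes5 passed in DESeq2 (adjusted p = 0.0201), in limma-voom (adjusted p = 0.0352), in a fit of these groups alone (edgeR adjusted p = 0.0158) and without NOTCHWT_TCFKO 2 (0.0445) or 3 (0.00764). Hes6 passed in the fit of these groups alone (0.33, edgeR adjusted p = 0.0166). At an unadjusted p under 0.05 Hes6 was the single higher target in edgeR, and DESeq2 and limma-voom called 0 higher. The call of Trib2 was lost when NICD_TCFWT 1 (edgeR adjusted p = 0.0695), NICD_TCFWT 2 (0.0724) or NOTCHWT_TCFWT 3 (0.0599) was left out, and in a fit of these groups alone (0.0742).

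Between NICD_TCFKO-labelled libraries and NICD_TCFWT-labelled ones, which share the N1IC label and differ in the Tcf7 label, 7 targets were higher and none lower. Of all genes 7.25% were called higher and 5.15% lower. The median log2 fold change was 4.71 over the targets and 0.00 over all genes. Dtx1 rose by 9.89 ± 0.57 (edgeR adjusted p = 1.54e-05), Hes1 by 5.12 ± 0.83, Hey1 by 4.92 ± 0.91, Nrarp by 3.48 ± 0.16 and Notch3 by 4.50 ± 0.42. Heyl was called higher with a fitted value of 7.44 ± 1.18 that rests on the same 5 counts and the prior count, and it ranged from 6.87 to 11.31 over the alternatives. Hey2 was called higher as well, at 117 times its level in NICD_TCFWT-labelled libraries (95% counting interval 20.6 to 4654). Hes5 (1.22 ± 0.43, edgeR adjusted p = 0.0909), Hes6 (0.18 ± 0.13) and Trib2 (0.87 ± 0.67) were not called. Hes5 passed in DESeq2 (adjusted p = 0.0324), in limma-voom (adjusted p = 0.0439), in a fit of these groups alone (edgeR adjusted p = 0.0349) and without NOTCHWT_TCFKO 3 (0.0136). No target was lower at an unadjusted p under 0.05, and DESeq2 and limma-voom likewise called 0 lower.

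NOTCHWT_TCFKO-labelled libraries and NOTCHWT_TCFWT-labelled ones differ in the Tcf7 label and in the Mx1Cre label, which cannot be told apart. Between these groups 8 targets were lower and none higher. Of all genes 10.5% were called lower and 10.8% higher. The median log2 fold change over the targets was -4.67, or -4.49 with Hey2 at the bound set by the floor. For Dtx1 it was -8.67 ± 0.54 (edgeR adjusted p = 6.46e-06), for Hey1 -6.91 ± 0.94, for Nrarp -4.45 ± 0.16, for Notch3 -4.80 ± 0.43, for Hes1 -4.53 ± 0.80 and, with 9 counts in the low group and a range of -6.43 to -4.23 over the alternatives, for Heyl -4.92 ± 1.06. Hey2 was at least 9.82-fold lower, with 3 counts in the shallowest of the 12 libraries as the floor. Hes5 fell by 1.70 ± 0.44 (edgeR adjusted p = 0.0192), whereas Hes6 (0.11 ± 0.13) and Trib2 (-1.38 ± 0.67, edgeR adjusted p = 0.177) were not called. No target was higher at an unadjusted p under 0.05, and DESeq2 and limma-voom called 0 higher. Without NOTCHWT_TCFKO 1, the library with transcripts of both sexes, 7 targets were called lower, Hes5 being lost (edgeR adjusted p = 0.0689). Hes5 was also lost without NOTCHWT_TCFKO 2 (0.0555), without NOTCHWT_TCFWT 1 (0.0672) and in a fit of these groups alone (0.0653).

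Between NICD_TCFKO-labelled libraries and NOTCHWT_TCFKO-labelled ones, 8 targets were higher and none lower, against 10.3% and 8.06% of all genes. The median log2 fold change over the targets was 4.18, or 3.85 with Hey2 at its bound. Dtx1 rose by 9.17 ± 0.54 (edgeR adjusted p = 7.49e-06), Notch3 by 5.80 ± 0.45, Hes1 by 4.37 ± 0.79, Hey1 by 4.0 ± 0.85, Nrarp by 3.71 ± 0.16 and Hes5 by 1.67 ± 0.44. Heyl was called higher, with a fitted value of 6.68 ± 1.11 and a range of 6.09 to 8.20 over the alternatives. Hey2 was at least 10.4-fold higher, with the same floor. Hes6 (0.39 ± 0.13, edgeR adjusted p = 0.0699) and Trib2 (-0.64 ± 0.66) were not called. Hes6 passed in DESeq2 (0.37, adjusted p = 0.0394) and without NICD_TCFKO 1 (0.47, edgeR adjusted p = 0.0355) or NOTCHWT_TCFKO 3 (0.52, 0.0151). No target was lower at an unadjusted p under 0.05, and DESeq2 and limma-voom called 0 lower. Without NOTCHWT_TCFKO 1, 7 targets were called higher. Hes5 was lost without that library (edgeR adjusted p = 0.0823), without NOTCHWT_TCFKO 2 (0.0701), NICD_TCFKO 2 (0.0626) or NICD_TCFKO 3 (0.0598), and in a fit of these groups alone (0.102), where Hey1 was lost as well (0.0620).

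These 4 comparisons share groups, so their values stand side by side and are not independent of each other. Hey2, Heyl and Dtx1 were called in all 4 and passed the filter on low counts through the groups where they were high. The counts and medians of the targets include them, so these calls add no separate support to the split. In bulk RNA, fewer cells that express a gene and less RNA of it per cell cannot be told apart.

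**Figure D2:**
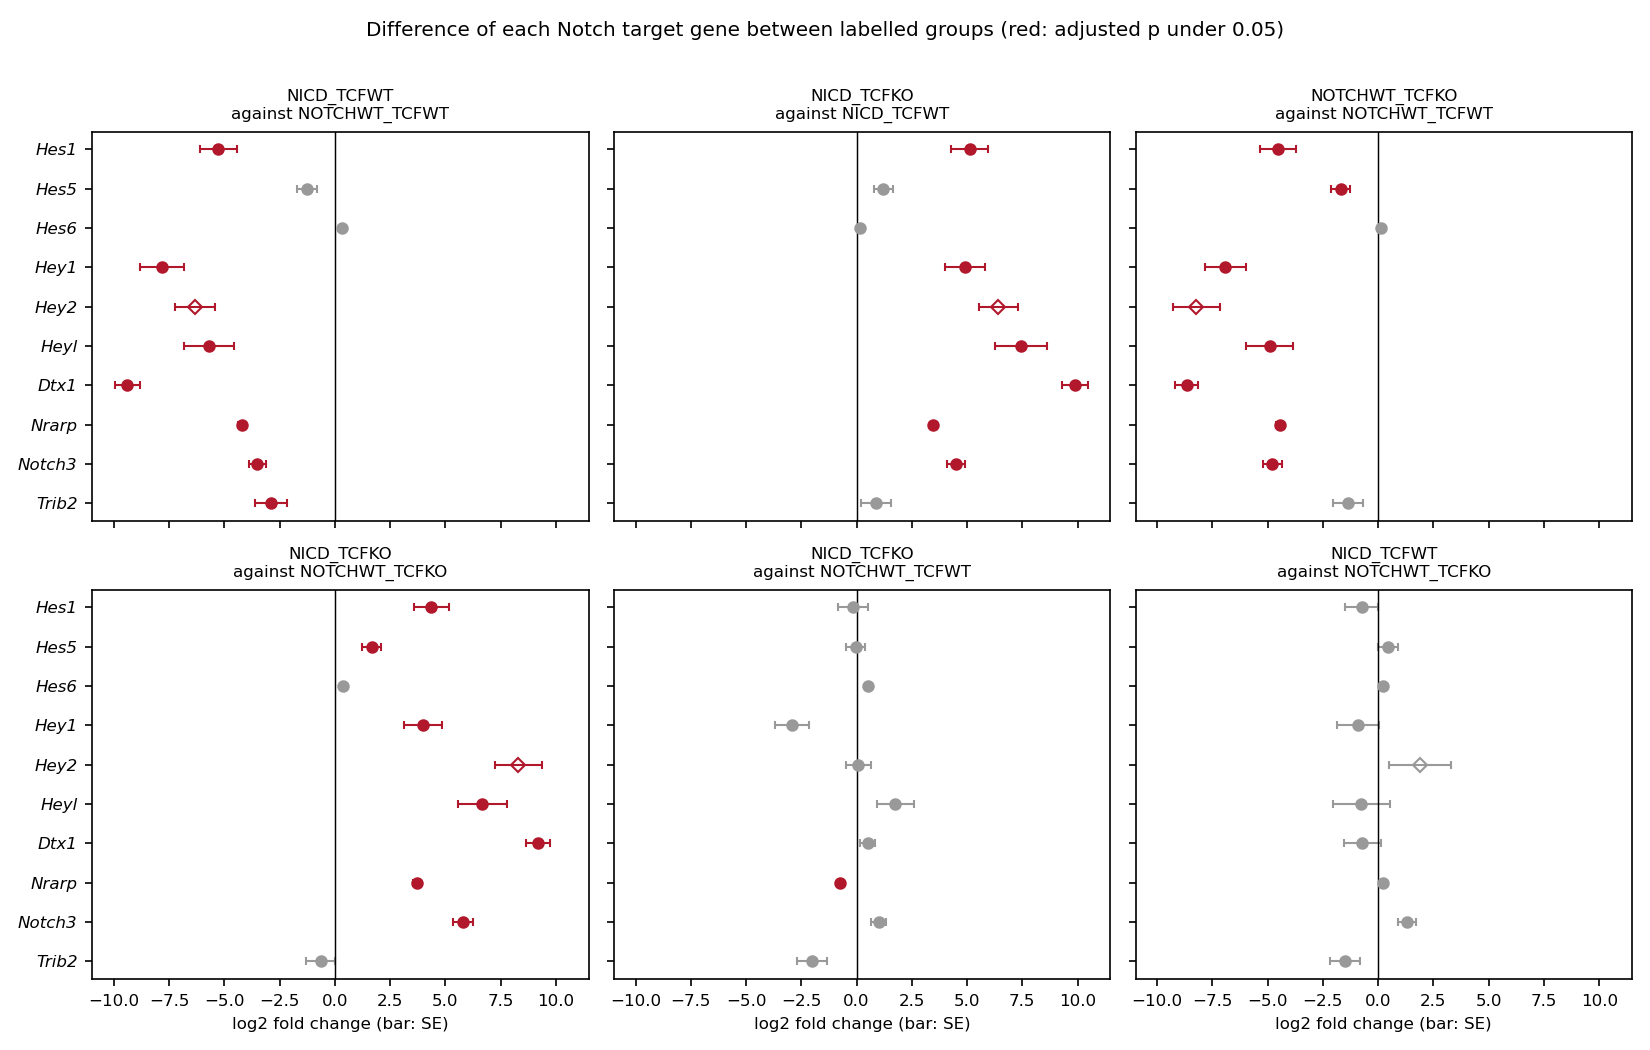
Log2 fold change of each Notch target gene with its SE in 6 comparisons of labelled groups, red where edgeR made a call at an adjusted p under 0.05 and as an open diamond where Hey2 had 1 or 0 counts in a group, so that its fitted value depends on the prior count. The first 4 panels show 7 or 8 red points on 1 side of 0, and the last 2 panels 1 red point (Nrarp) and none.

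Between the groups of the same level few targets were called, while fitted differences of some were large. In NICD_TCFKO-labelled libraries against NOTCHWT_TCFWT-labelled ones, 1 target (Nrarp) was lower and none higher, where 2.3% and 4.01% of all genes were called. Nrarp averaged 68.8 ± 8.07 CPM in NICD_TCFKO-labelled libraries and 114 ± 6.32 CPM in NOTCHWT_TCFWT-labelled ones (SD, n = 3 each), without overlap (-0.73 ± 0.14, edgeR adjusted p = 0.0139). This call was lost without NICD_TCFKO 3 (edgeR adjusted p = 0.0522) or NOTCHWT_TCFWT 1 (0.0592). Hey1 differed more in size, at 10.6 ± 10.2 CPM in NICD_TCFKO-labelled libraries and 80.0 ± 25.3 CPM in NOTCHWT_TCFWT-labelled ones, but was not called (-2.92 ± 0.76, edgeR adjusted p = 0.0545). It passed without NICD_TCFKO 1 (-4.08, edgeR adjusted p = 0.0107), without NOTCHWT_TCFKO 3 (-2.91, 0.0436), in DESeq2 (-2.92, 0.00646) and in limma-voom (-3.29, 0.00439). Hes1 (-0.17 ± 0.68, 95% interval -1.50 to 1.17), Dtx1 (0.50 ± 0.34, -0.17 to 1.17) and Hes5 (-0.04 ± 0.43, -0.87 to 0.80) were not called. The intervals are approximate and somewhat too narrow, and differences at least as large as they span could not be resolved by these libraries. Heyl (1.76 ± 0.84), Notch3 (1.00 ± 0.36) and Trib2 (-2.02 ± 0.68, without overlap) were not called either. Notch3 passed without NICD_TCFKO 1 (1.32, edgeR adjusted p = 0.0214), and both Notch3 (0.99, adjusted p = 0.0343) and Trib2 (-2.02, adjusted p = 0.0340) passed in DESeq2. At an unadjusted p under 0.05 there were 2 higher targets (Hes6, Notch3), DESeq2 called 2 higher and limma-voom 0.

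In NICD_TCFWT-labelled libraries against NOTCHWT_TCFKO-labelled ones no target was called in either direction, where 1.54% of all genes were called higher and 1.34% lower. Without adjustment, Notch3 was higher and no target lower in edgeR at a p under 0.05, although the Trib2 levels of these groups did not overlap (-1.52 ± 0.68, edgeR adjusted p = 0.229). DESeq2 called 1 higher (Notch3, 1.29, adjusted p = 0.00827) and 0 lower, and limma-voom 0 in both directions. Notch3 also passed without NICD_TCFKO 1 (1.29, edgeR adjusted p = 0.0444), and both Notch3 (1.68, 0.0398) and Hes5 (1.25, 0.0290) passed without NOTCHWT_TCFKO 3. Intervals stayed wide for the scarce genes, as for Hey1 (95% interval -2.77 to 0.92) and Dtx1 (-2.35 to 0.92), and were narrow for Nrarp (-0.06 to 0.52) and Hes6 (-0.06 to 0.47).

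Whether the difference between the TCFKO and TCFWT labels depended on the N1IC label was tested as an interaction. Only the NOTCHWT_TCFWT group lacks the Mx1Cre label, so a part of Cre in the interaction cannot be told apart. The interaction was positive and called for 8 targets and negative for none, where 13.8% and 13.5% of all genes were called. Nrarp had an interaction of 7.93 ± 0.22 (edgeR adjusted p = 1.07e-08), Dtx1 18.56 ± 0.78, Hey1 11.83 ± 1.30, Hes1 9.65 ± 1.15, Notch3 9.31 ± 0.60 and Hes5 2.92 ± 0.62 on the log2 scale. Heyl and Hey2 were called too, with fitted values that depend on the prior count. Hes6 (0.06 ± 0.19, 95% interval -0.31 to 0.44) and Trib2 (2.25 ± 0.95, edgeR adjusted p = 0.107) were not called, and Trib2 passed without NICD_TCFWT 3 (3.18, edgeR adjusted p = 0.0291). No target was negative at an unadjusted p under 0.05, and DESeq2 and limma-voom called 0.

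Ratios between targets set the 2 high groups side by side. That of Hes1 to Hey1 CPM was 9.95, 28.9 and 25.0 in NICD_TCFKO-labelled libraries, against 2.34, 2.12 and 2.25 in NOTCHWT_TCFWT-labelled ones, without overlap. Dtx1 over Nrarp was 0.855, 2.34 and 2.20 in NICD_TCFKO-labelled libraries, against 0.676, 0.767 and 0.806 in NOTCHWT_TCFWT-labelled ones. Notch3 over Notch1 was 0.0775, 0.121 and 0.137 in NICD_TCFKO-labelled libraries, against 0.0793, 0.0854 and 0.0716 in NOTCHWT_TCFWT-labelled ones, and these overlapped. The ratios were chosen after the levels were seen and were not tested. NICD_TCFKO 1 stood nearest to NOTCHWT_TCFWT-labelled libraries in the first 2 ratios. It was the lowest of its group for 7 targets and the highest for 3 (Hes1, Hey1 and Nrarp), and it was also the lowest in Tcf7 and the only library of its group with Y-linked transcripts. The part of these features in the ratios was not tested.

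**Figure D3:**
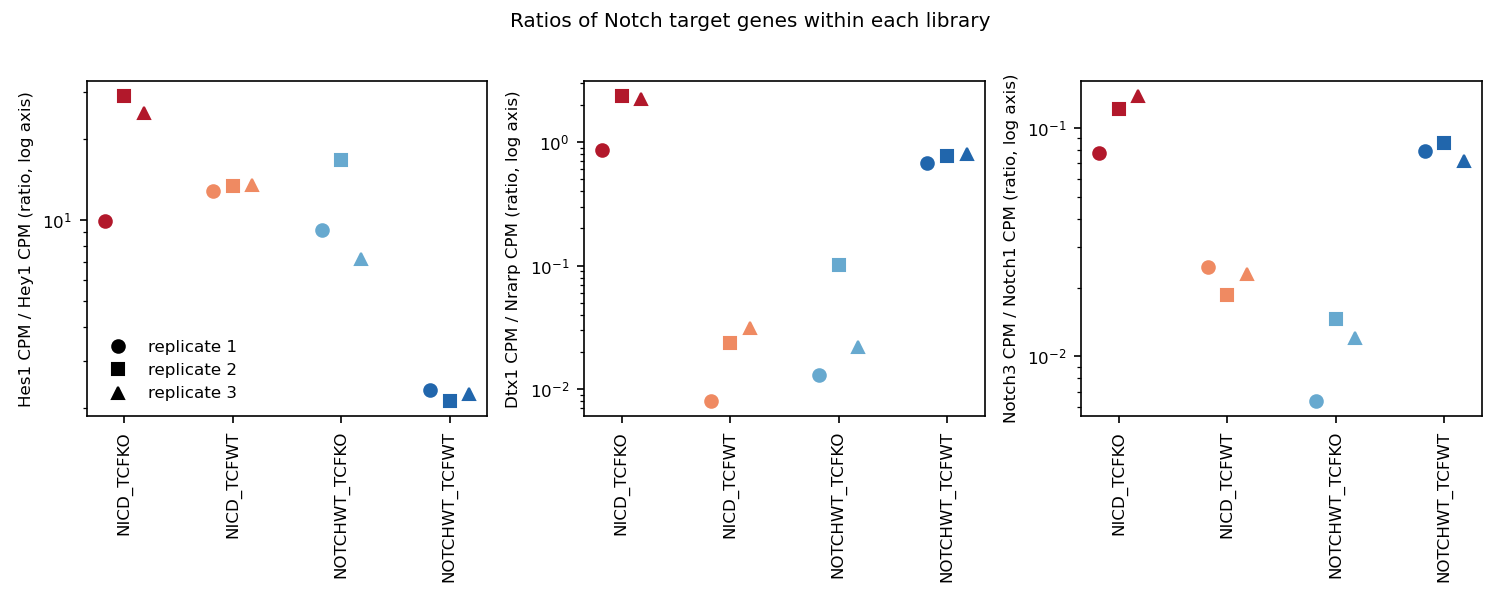
Ratio of Hes1 to Hey1, of Dtx1 to Nrarp and of Notch3 to Notch1 CPM (log axes) in each library, with the symbol giving the replicate. In the first panel NOTCHWT_TCFWT-labelled libraries lie at 2.12 to 2.34, below all other libraries, and in the other panels both low groups lie below both high ones.

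Across libraries Hes1 and Hey1 ranked the replicates alike in 3 of the 4 groups, more than any other pair of targets, though with 3 libraries a group this is a description only. Likeness to other genes was taken as the root mean square difference of log2(CPM + 2) over the 12 libraries after centring each gene. The pseudocount of 2 sets the span of genes below about that level, as Dtx1 and Hey1 were in the low groups, and so bears on the order. Among 10262 other genes, the nearest to Nrarp were Plekha7 (0.43), Perm1 (0.46) and Vash1 (0.47), and the nearest to Hes1 were Perm1 (0.94), Pla2r1 (0.98) and Scin (1.04). The nearest to Hey1 were Itgb6 (1.02), Scin (1.14) and Frk (1.16), and the nearest to Dtx1 were Gzmb (1.57), Tcte2 (1.78) and Gzma (1.94), of which Gzmb and Gzma encode granzymes of cytotoxic lymphocytes. Plekha7 averaged 163 ± 65.6 CPM in NICD_TCFKO-labelled libraries, 19.4 ± 2.49 in NICD_TCFWT-labelled ones, 10.8 ± 5.23 in NOTCHWT_TCFKO-labelled ones and 295 ± 43.2 in NOTCHWT_TCFWT-labelled ones (SD, n = 3 each). Gzmb averaged 195 ± 74.4, 3.95 ± 0.320, 1.86 ± 1.13 and 1009 ± 371 CPM in the same groups.

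Upstream of the targets, the receptor gene Notch1 moved with them. On the log2 scale Notch1 fell by 1.66 ± 0.22 in NICD_TCFWT-labelled libraries against NOTCHWT_TCFWT-labelled ones (edgeR adjusted p = 0.000707) and rose by 2.10 ± 0.22 in NICD_TCFKO-labelled ones against NICD_TCFWT-labelled ones (edgeR adjusted p = 0.000418). Of 7 tested receptors and ligands, 1 was higher (Jag2, 1.32 ± 0.32) and 2 were lower (Notch1 and the ligand gene Dll1, -2.59 ± 0.58) in the first of these comparisons, and in the second Notch1 alone was higher and none lower, with 1 lower at an unadjusted p under 0.05 and 1 and 0 called lower by DESeq2 and limma-voom. Rbpj, the DNA-binding partner, differed far less, with log2 fold changes of -0.26 ± 0.06 in the first comparison (edgeR adjusted p = 0.0113) and 0.26 ± 0.06 in the second (edgeR adjusted p = 0.0178). Among 15 genes of the nuclear complex and its co-repressors 0 were higher and 3 lower in the first comparison (Kat2b, Rbpj and Kdm5a), where 10.6% and 9.75% of all genes were, and 3 higher and 0 lower in the second (the same genes), where 7.25% and 5.15% were. In edgeR the counts of 0 were 0 and 1 at an unadjusted p threshold of 0.05, and both were 0 in DESeq2 and limma-voom.

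Among 15 genes of receptor processing and cleavage, 3 were higher and 0 lower in NICD_TCFWT-labelled libraries against NOTCHWT_TCFWT-labelled ones (10.6% and 9.75% of all genes), with 1 lower in edgeR without adjustment and 0 in DESeq2 and limma-voom. They were Aph1c, a subunit of the γ-secretase that frees the intracellular domain (1.60 ± 0.21), Lfng, a glycosyltransferase that modifies Notch (1.12 ± 0.19), and Furin, the protease of the first cut (0.37 ± 0.11). Aph1c went the other way from the targets in all 4 comparisons across the split, with log2 fold changes of 1.73 ± 0.21 in NOTCHWT_TCFKO-labelled libraries against NOTCHWT_TCFWT-labelled ones (edgeR adjusted p = 0.000291) and -0.998 ± 0.20 in NICD_TCFKO-labelled ones against NICD_TCFWT-labelled ones (edgeR adjusted p = 0.0112). Among 11 genes of trafficking and turnover, 0 were higher and 3 lower in the same comparison, with 1 higher in edgeR without adjustment, 1 in DESeq2 and 0 in limma-voom. Among them Dtx3l, a relative of Dtx1, went with the targets. It fell by 0.89 ± 0.11 in NICD_TCFWT-labelled libraries against NOTCHWT_TCFWT-labelled ones (edgeR adjusted p = 0.000402) and rose by 0.72 ± 0.11 in NICD_TCFKO-labelled ones against NICD_TCFWT-labelled ones (edgeR adjusted p = 0.00245). Dtx4, a further relative, went against the targets in NOTCHWT_TCFKO-labelled libraries against NOTCHWT_TCFWT-labelled ones (1.86 ± 0.45, edgeR adjusted p = 0.0165). Dtx2 went with them in NICD_TCFKO-labelled libraries against NOTCHWT_TCFKO-labelled ones (0.49 ± 0.11, edgeR adjusted p = 0.0156).

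Of 5 Groucho genes, whose products are the co-repressors that HES and HEY proteins recruit, Tle1 had a log2 fold change of -1.75 ± 0.18 in NICD_TCFWT-labelled libraries against NOTCHWT_TCFWT-labelled ones (edgeR adjusted p = 0.000159) and of -1.47 ± 0.18 in NICD_TCFKO-labelled ones against NOTCHWT_TCFWT-labelled ones (edgeR adjusted p = 0.00169). Tle3 was higher by 0.91 ± 0.15 in NICD_TCFKO-labelled libraries against NICD_TCFWT-labelled ones (edgeR adjusted p = 0.00352). Of the other HES and related genes 3 of 6 were tested, and among them Bhlhe41 was higher by 3.83 ± 1.09 in NOTCHWT_TCFKO-labelled libraries against NOTCHWT_TCFWT-labelled ones (edgeR adjusted p = 0.0292). This value rests on 5 counts of Bhlhe41 in all in NOTCHWT_TCFWT-labelled libraries.

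Further Notch-responsive genes of T cell progenitors did not all follow the targets. Il2ra, which encodes the CD25 chain of the interleukin-2 receptor, was at 395, 1265 and 745 CPM in NICD_TCFKO-labelled libraries, against 1.27, 1.06 and 3.38 CPM in NOTCHWT_TCFWT-labelled ones (8.67 ± 0.92, edgeR adjusted p = 0.00164). It was at 0.326, 0.334 and 0.108 CPM in NICD_TCFWT-labelled ones. Il2ra thus separated the 2 groups in which 8 of the targets were high. Il7r, the interleukin-7 receptor gene, was at 31.7, 83.4 and 78.6 CPM in NICD_TCFKO-labelled libraries, against 0.260, 0.430 and 0.724 CPM in NOTCHWT_TCFWT-labelled ones (7.06 ± 0.64, edgeR adjusted p = 0.00043). Unlike the targets, Il7r was also higher than in NOTCHWT_TCFWT-labelled libraries in NICD_TCFWT-labelled ones (4.37, 2.29 and 7.63 CPM, 3.30 ± 0.57, edgeR adjusted p = 0.00336). The same held in NOTCHWT_TCFKO-labelled ones (10.3, 11.3 and 15.9 CPM, 4.70 ± 0.59, edgeR adjusted p = 0.000501). Myc, a Notch target in T cell leukaemia, was at 346, 396 and 471 CPM in NICD_TCFWT-labelled libraries, against 267, 253 and 295 CPM in NOTCHWT_TCFWT-labelled ones, and so was higher where the targets were low (0.57 ± 0.11, edgeR adjusted p = 0.00444). Of these 9 genes 5 were higher and 0 lower in NICD_TCFKO-labelled libraries against NOTCHWT_TCFWT-labelled ones (4.01% and 2.3% of all genes), with 1 lower in edgeR without adjustment, 1 in DESeq2 and 0 in limma-voom. The 9 genes include Tcf7, which the labels name and which was among those called higher here (5.34 ± 0.66). In NICD_TCFWT-labelled libraries against NOTCHWT_TCFWT-labelled ones, 3 of the 9 were higher and 0 lower (10.6% and 9.75% of all genes), with 2 lower in edgeR without adjustment, 1 in DESeq2 and 0 in limma-voom.

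Of 6 genes reported elsewhere as repressed by HES1, 4 were tested. Cebpa, which encodes the myeloid factor C/EBPα, was at 28.5, 41.3 and 82.7 CPM in NICD_TCFWT-labelled libraries, against 0.144, 0 and 0.0467 CPM in NOTCHWT_TCFWT-labelled ones (9.54 ± 0.95, edgeR adjusted p = 0.000223). Cebpa had 7 counts in all in NOTCHWT_TCFWT-labelled libraries, and its fitted differences from that group rest on these few counts. It was at 1.75, 2.32 and 6.57 CPM in NICD_TCFKO-labelled libraries, against 69.7, 79.0 and 34.7 CPM in NOTCHWT_TCFKO-labelled ones (-4.11 ± 0.65, edgeR adjusted p = 0.00316). The high groups for Hes1 were the low groups for Cebpa, and between these NICD_TCFKO-labelled libraries held more Cebpa than NOTCHWT_TCFWT-labelled ones (5.70 ± 0.95, edgeR adjusted p = 0.00988). Cdkn1c, an inhibitor of the cell cycle, was higher by 3.59 ± 0.45 in NICD_TCFWT-labelled libraries against NOTCHWT_TCFWT-labelled ones (edgeR adjusted p = 0.000435) and had a log2 fold change of -2.24 ± 0.42 in NICD_TCFKO-labelled ones against NOTCHWT_TCFKO-labelled ones (edgeR adjusted p = 0.00495). Cdkn1b went the other way in the first of these comparisons (-0.45 ± 0.13, edgeR adjusted p = 0.0368). Cebpa is also a partner of Trib2. Of the 5 genes of the Tribbles family and its partners, 3 were higher in NICD_TCFWT-labelled libraries against NOTCHWT_TCFWT-labelled ones (Cebpa, Trib3 and Cebpb) and 0 lower, as was also the count in edgeR without adjustment, in DESeq2 and in limma-voom. Of all genes 10.6% were called higher and 9.75% lower in this comparison.

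**Figure D4:**
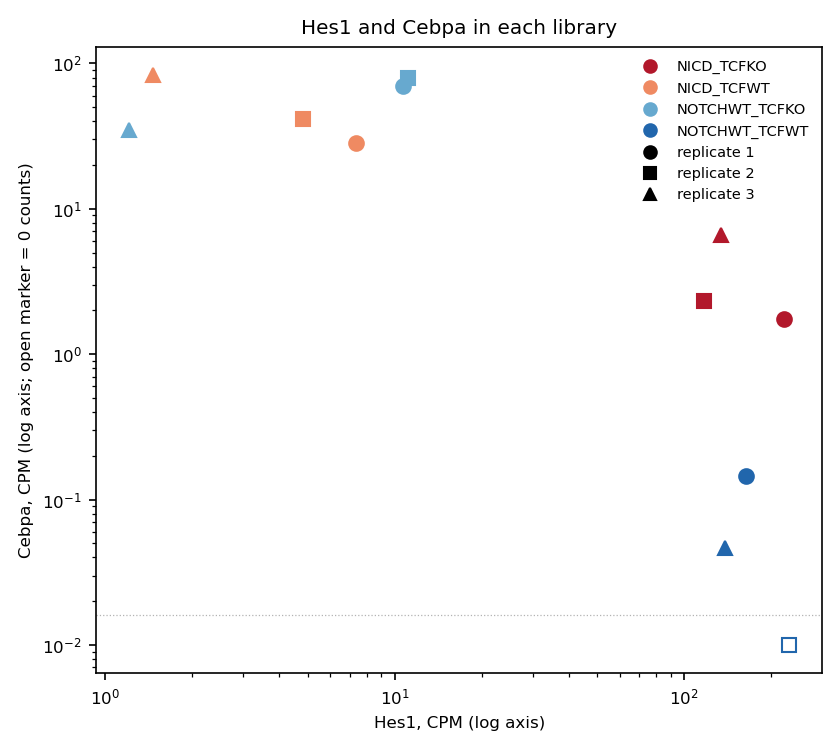
Hes1 against Cebpa, both in CPM on log axes, with 1 point a library, colour for the labelled group, symbol for the replicate and an open symbol for 0 counts. The 6 libraries with Hes1 at 118 CPM or more have Cebpa at 6.57 CPM or less, and the 6 with Hes1 at 11.1 CPM or less have it at 28.5 CPM or more.

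Markers of some other cell types moved with the split. The sum of 11 T lineage markers was 528 to 1488 CPM in NICD_TCFKO-labelled libraries, 42.9 to 73.0 in NICD_TCFWT-labelled ones, 34.7 to 59.7 in NOTCHWT_TCFKO-labelled ones and 403 to 449 in NOTCHWT_TCFWT-labelled ones. Of these markers Ptcra and Cd3g were without counts in NICD_TCFWT-labelled libraries and Ptcra in NOTCHWT_TCFKO-labelled ones. The sum in NOTCHWT_TCFWT-labelled libraries came almost wholly from Lck, Trbc1, Trbc2 and Thy1, with Cd3g at 0 to 0.117 CPM, Bcl11b at 0.0661 to 0.724 CPM and 1 count of Ptcra, whereas Cd3g was at 14.3 to 94.6 CPM in NICD_TCFKO-labelled ones. Cd4 ran otherwise, at 3.08 to 3.58 CPM in NICD_TCFKO-labelled libraries, 3.80 to 4.33 in NICD_TCFWT-labelled ones, 6.13 to 9.29 in NOTCHWT_TCFKO-labelled ones and 0.770 to 1.52 in NOTCHWT_TCFWT-labelled ones. The sum of 7 granulocyte and monocyte markers, Cebpa included, ran the other way, at 334 to 1082, 1384 to 5657, 1278 to 7866 and 66.4 to 125 CPM in the same order of groups. Most of it was Mpo, except in NOTCHWT_TCFWT-labelled libraries, where most was Csf1r. Csf1r did not follow the sum, at 63.2 to 121, 15.8 to 68.9, 34.2 to 117 and 42.9 to 94.0 CPM in that order. The part of these markers in the differences of the targets was not tested. Endothelial markers, whose cell type expresses Hey1 and Hey2, summed over 5 genes to 6.39 to 8.34, 3.91 to 6.63, 3.81 to 8.37 and 7.77 to 10.2 CPM in the same order. NOTCHWT_TCFWT-labelled libraries thus lay above NICD_TCFWT-labelled ones without overlap. The pericyte and smooth muscle list, whose cells express Notch3 and Heyl, summed to 414 to 521, 83.6 to 103, 50.03 to 90.7 and 890 to 1022 CPM, nearly all of it from Pdgfrb. Among its other genes Rgs5, Cspg4 and Acta2 were without counts in NICD_TCFWT-labelled libraries, Cspg4 none in NICD_TCFKO-labelled ones and Rgs5 none in NOTCHWT_TCFWT-labelled ones. Macrophage markers did not move with the split and summed to 204 to 299 CPM in NOTCHWT_TCFKO-labelled libraries and to 5.18 to 15.7 CPM in the others. Mast cell and basophil markers summed to 185 to 275 CPM in NICD_TCFKO-labelled libraries and 104 to 115 in NICD_TCFWT-labelled ones. They summed to 53.0 to 186 CPM in NOTCHWT_TCFKO-labelled libraries and 246 to 390 in NOTCHWT_TCFWT-labelled ones. Most of the sum was Cpa3 in NICD_TCFKO-labelled libraries (172 to 263 CPM) and in NOTCHWT_TCFWT-labelled ones (238 to 350 CPM). Tpsb2 ran otherwise, at 18.6 to 30.5 CPM in NICD_TCFWT-labelled libraries and below 1 CPM in all others. Mcpt8 and Ms4a2 overlapped between the high and the low groups.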

How the data were processed

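RNA of sorted LSK cells was sequenced in 12 samples. Per the labels' protocols, RNA was taken up with PicoPure, and library preparation combined TruSeq with Nextera XT before single-end sequencing. The submitters' processing notes name, without roles, the mm10 build, HISAT2, featureCounts 1.4.4, cutadapt 1.9.1, bcl2fastq 2.17, limma and edgeR 3.28.0. The deposited values are raw counts per Ensembl gene, and the 12 per-sample files equal the whole-series table. The authors also deposited log2 values for 15759 genes, which recompute from the counts as log2 CPM with 0.5 added to each count, and these were not used further.

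Symbols and exon lengths came from GENCODE M21, which matched 37607 of the 39017 genes. CPM refers to TMM-scaled library size. The filterByExpr filter left 16024 genes. In edgeR 4.0.16 under R 4.3.3, the quasi-likelihood fit took the 4 group means over the 12 libraries (biological coefficient of variation 0.299), with two-sided tests and Benjamini-Hochberg adjustment. Each SE is the size of the log2 fold change over the root of its F statistic. Counting floors and counting intervals cover counting error only. The test was checked on simulated data.

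The 10 targets, the 9 lists of pathway genes and the 12 marker lists were chosen with earlier results of these data known. Genes named are the 10 targets, Notch1, Tcf7, up to 3 called members with the smallest p per list and comparison, and the 3 genes nearest to Dtx1, Hes1, Nrarp and Hey1 among those at 5 CPM or more in some group. Each replicate pair differed by more than counting noise. Alternatives were RLE size factors, no filter, at least 1 CPM in 3 samples, DESeq2 1.42.0, limma-voom (limma 3.58.1), a fit of only the groups compared, a replicate block, a covariate for library sets inferred from numbers in the titles, and leaving out each library. The remaining marker lists summed, as the range over all libraries, to 22.2 to 57.6 CPM (B lineage), 3.07 to 19.6 (NK) and 6.21 to 482 (erythroid). The range was 85.6 to 239 CPM for megakaryocyte markers, 0.260 to 4.89 for stroma and 1360 to 3020 for the LSK and progenitor list. The highest erythroid and B lineage sums were both those of NOTCHWT_TCFKO 2, with Hbb-bs at 171 CPM and Cd79a at 15.0 CPM. That library also held 16 of the 24 counts of Dtx1 and 7 of the 9 counts of Heyl in its group. The part of these markers in those counts was not tested.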

Additional observations from a re-analysis of the deposited data

Results flagged for a closer look

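In all, 8 targets and the genes used to check the labels had an interaction past the threshold in edgeR's quasi-likelihood test, so the difference between the TCFKO and TCFWT labels differed between the libraries labelled NICD and those labelled NOTCHWT. The log2 interaction was 9.65 for Hes1, 2.92 for Hes5, 11.83 for Hey1, 18.56 for Dtx1, 7.93 for Nrarp and 9.31 for Notch3. It was 14.65 for Hey2 and 12.36 for Heyl, values that depend on the prior count because these genes had few or no counts in 2 groups. It was 4.04 for Notch1 and 10.32 for Tcf7. In each case the TCFKO libraries were higher than the TCFWT libraries among those labelled NICD, and lower among those labelled NOTCHWT.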

How the results depend on the processing

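Of the values of the targets, Notch1 and Tcf7 under the alternatives, 1601 kept their direction and their side of the threshold, 37 came past it, 16 fell short of it and 11 changed sign, all of them not called either way and all in fits that left out a library. Over all alternatives for NICD_TCFKO against NOTCHWT_TCFWT, log2 fold changes ranged from -0.490 to 0.0816 for Hes1, -0.186 to 0.128 for Hes5 and -0.286 to 0.486 for Hey2. In NICD_TCFWT against NOTCHWT_TCFKO they ranged from -4.64 to 0.743 for Heyl and -1.10 to 0.288 for Dtx1, both positive without NOTCHWT_TCFKO 2 alone. For Hes6 they ranged from -0.0103 to 0.223 in NOTCHWT_TCFKO against NOTCHWT_TCFWT and from -0.0334 to 0.187 for the interaction. The counts of called targets across the split moved by no more than 1 in the leave-one-out fits. Those counts ranged from 7 to 9 lower in NICD_TCFWT against NOTCHWT_TCFWT, 7 to 8 higher in NICD_TCFKO against NICD_TCFWT, 7 to 8 lower in NOTCHWT_TCFKO against NOTCHWT_TCFWT, 7 to 9 higher in NICD_TCFKO against NOTCHWT_TCFKO and 8 to 9 positive for the interaction. In NICD_TCFKO against NOTCHWT_TCFWT they ranged from 0 to 2 higher and 0 to 2 lower, and in NICD_TCFWT against NOTCHWT_TCFKO from 0 to 2 higher. Leaving out NICD_TCFKO 1 gave 2 higher and 2 lower in NICD_TCFKO against NOTCHWT_TCFWT, and leaving out NOTCHWT_TCFKO 3 gave 2 higher in NICD_TCFWT against NOTCHWT_TCFKO. In NICD_TCFKO against NOTCHWT_TCFWT, higher targets numbered 1 with RLE size factors, 1 with at least 1 CPM in 3 samples and 2 in DESeq2, and lower targets 2 with at least 1 CPM in 3 samples, 3 in DESeq2, 2 in limma-voom and 2 with the library set covariate. In NICD_TCFWT against NOTCHWT_TCFKO DESeq2 called 1 higher, and in NICD_TCFWT against NOTCHWT_TCFWT the fit of only these groups called 1 higher. The causes were not tested.

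Replicate numbers did not pair the libraries, since same-numbered libraries of different groups had correlated deviations of -0.404 to 0.451 (median 0.030, 18 pairs), and a library correlated best with its own number in 13 of 36 cases. With a replicate block 2 targets were lower in NICD_TCFKO against NOTCHWT_TCFWT in place of 1, Hey1 being added.

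Counts over all genes varied more, and the percentages of all genes called are those of the edgeR fit over 12 libraries. In NICD_TCFWT against NOTCHWT_TCFKO, 246 higher and 214 lower genes became 737 and 918 in DESeq2, 159 and 132 with the replicate block and 96 to 968 and 65 to 1097 over the leave-one-out fits. In NICD_TCFKO against NOTCHWT_TCFWT, 642 and 368 became 1160 and 865 in DESeq2, 360 and 178 in the fit of these groups alone and 251 to 781 and 117 to 504 over the leave-one-out fits. In NICD_TCFKO against NICD_TCFWT 825 lower genes became 1468 in DESeq2, and leave-one-out fits gave 564 to 1463 higher and 332 to 1225 lower. In NICD_TCFKO against NOTCHWT_TCFKO 1650 and 1292 became 724 and 514 in the fit of these groups alone, 2013 and 1998 in DESeq2, and 861 to 1786 and 649 to 1516 over the leave-one-out fits. Counts of the fixed lists kept within 1.5 times in 2210 cases and moved in 292. Hey2, Heyl, Dtx1 and Hey1 rest on few counts in the low groups, where depth limits their levels.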
